A study of Mus musculus with 19 samples.

Results

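The embryos described here are the non-KO blastocysts and non-KO morulae of the Gabpb1 cross, which are 5 of the 19 embryos of the series (3 blastocysts and 2 morulae). They were chosen by their labelled cross, genotype class and stage, and no measured value entered the choice. The series profiled single mouse embryos by polyA RNA sequencing to compare embryos lacking Alyref, an mRNA export adaptor, or Gabpb1, which encodes part of the transcription factor GABP, with the remaining embryos of the same crosses. Sperm and oocytes of Gabpb1+/- mice were combined in vitro, so every embryo described here had 2 heterozygous parents and is labelled WT or hetero, without saying which. The WT mice of the study were B6D2F1. Both stages were grown in KSOM, a simple culture medium for preimplantation embryos, at 37 °C under 5% CO2, and both were collected at 96 hours post insemination (hpi). The contrast between them is therefore one of stage at the same age. The zona pellucida was removed, each embryo was lysed alone, the lysate received ERCC spike-in RNA, and the cDNA was amplified over 16 PCR cycles.

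A morula is a ball of compacted blastomeres. It becomes a blastocyst when its outer cells, the trophectoderm, form a sealed epithelium that pumps fluid into a central cavity, while the enclosed inner cell mass gives rise to the epiblast and the primitive endoderm. An embryo that is still a morula when other embryos of the culture hold a cavity may be later in development or arrested.

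The 5 libraries held 8639704 to 13607991 gene counts. Levels below are in CPM, gene counts scaled to a common library size after TMM normalisation, and differences are log2 fold changes of blastocysts over morulae from edgeR's quasi-likelihood (QL) test with its standard error (SE). A gene counts as called when its Benjamini-Hochberg (BH) adjusted p was under 0.05. Each library is a separate embryo, but nothing says that the embryos came from separate fertilisations, so p-values measure the spread between embryos only. For the QL test that spread was estimated over all 7 groups of the series, not from the 5 embryos alone. With the fit restricted to the groups compared, the smallest adjusted p of the stage contrast was 0.457, against 0.0724 in the main fit. In a whole embryo, fewer cells of a type and less RNA per cell cannot be told apart. ERCC reads made up 0.872% to 1.59% of all counts in the blastocysts and 0.621% and 0.635% in the morulae. The log2 ratio of gene counts to ERCC counts was 6.83, 6.39 and 5.96 in blastocysts 1 to 3 and 7.32 and 7.29 in morulae 1 and 2. All 3 blastocysts thus lay below both morulae, by 0.91 on the log2 scale between the means (6.39 ± 0.44, SD, n = 3, against 7.31 ± 0.02, SD, n = 2). A two-sided exact permutation test gave p = 0.2, and 3 embryos against 2 cannot reach less than 0.1. Scaling by ERCC in place of TMM moved the median fold change of all genes from 0.02 to -0.86, so every difference below is relative to the bulk of genes.

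Morula 1 stood closer to the blastocysts than morula 2 did, and as close as they stood to each other. The Pearson correlation of log2 levels across genes was 0.961 to 0.976 between blastocysts and 0.968 to 0.969 between morula 1 and each blastocyst. Between morula 2 and the blastocysts it was 0.947 to 0.959, and between both morulae 0.965. Of the genes tested, 56.3% had a level in morula 1 that lay inside the range of the 3 blastocysts, and 45.6% did so in morula 2. Markers of the tissue were present in all 5 embryos: 6 trophectoderm markers summed to 4136 to 4936 CPM in the blastocysts, 3989 CPM in morula 1 and 2493 CPM in morula 2. The 5 epiblast markers summed to 273 to 344 CPM in the blastocysts and to 284 and 188 CPM in morulae 1 and 2. Markers of cumulus cells, which surround the oocyte, summed to at most 5.69 CPM, with Has2, Fshr and Inhba at 0 in all 5 embryos.

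No gene was called between the stages among the 18410 genes tested (0% called). The cut of 0.05 on the unadjusted p was passed by 1237 genes (6.72%), of which 422 (2.29%) were higher and 815 (4.43%) lower in blastocysts. Chance alone would put about 920 of the genes tested under that cut. The 3 blastocysts lay above both morulae for 2099 genes (11.4%) and below both for 2151 genes (11.7%). The 5 embryos can be split into 3 and 2 in 10 ways, so without a stage difference a share of about 0.1 is expected for each order. Both shares are close to that. DESeq2 called 57 genes, 12 higher (0.0652%) and 45 lower (0.244%). Without morula 1 the QL test called 6 genes, among them Nfic, Nlrp4c and Ctsb, with 1685 at an unadjusted p under 0.05. Without morula 2 it called 0, with 514 at an unadjusted p under 0.05. In simulated counts with the same embryos, 34% of the genes given a log2 change of 2 and 64% of those given 3 were found by the QL test, so most differences of smaller size were not detectable with 5 embryos.

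The smallest p belonged to Nfic (chromosome 10, positions 81396186 to 81455635, minus strand, GRCm38), which encodes a transcription factor of the nuclear factor I family. It stood at 2.22, 2.25 and 2.19 CPM in blastocysts 1 to 3 and at 9.75 and 19.4 CPM in morulae 1 and 2. The blastocysts were nearly identical and both morulae were at least several times above them. This is a log2 difference of -2.71 (SE 0.39, adjusted p = 0.0724 by the QL test). Over the alternatives the adjusted p ran from 3.21e-06 with DESeq2 to 0.840 without morula 2. Nfic differed by -3.12 without morula 1 and by -2.13 without morula 2. Its exons overlap those of Gm16104 on the opposite strand.

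Nlrp4c, an oocyte-expressed member of the NLR family, was 35.3, 24.5 and 36.1 CPM in the blastocysts and 82.1 and 161 CPM in the morulae (log2 fold change -1.92, SE 0.33, adjusted p = 0.216). Its transcript is 92.8% identical to that of Nlrp4e over 3367 bases, so reads of these copies may be shared. Cnn2 (chromosome 10, positions 79988584 to 79996062), which encodes the actin-binding protein calponin 2, went the other way. It was 305, 146 and 201 CPM in blastocysts 1 to 3 against 56.3 and 21.9 CPM in morulae 1 and 2, or 2.48 on the log2 scale (SE 0.45, adjusted p = 0.216). It was 3.31 without morula 1 and 1.95 without morula 2. Sqstm1 encodes p62, the receptor that carries ubiquitinated cargo into autophagosomes. Its level was 191, 193 and 169 CPM in the blastocysts and 437 and 620 CPM in the morulae (log2 fold change -1.52, SE 0.28, adjusted p = 0.216). Ctsb, the lysosomal protease cathepsin B, was 262, 235 and 211 CPM in the blastocysts and 432 and 757 CPM in the morulae (log2 fold change -1.33, SE 0.25, adjusted p = 0.216). In each of these 4 genes the stages did not overlap, and morula 1 lay between the blastocysts and morula 2. Ctsb shares exon positions with Fdft1 and Sqstm1 with Mrnip on the opposite strand, and the strand setting of the counting is not given in the sources used here.

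**Figure D1:**
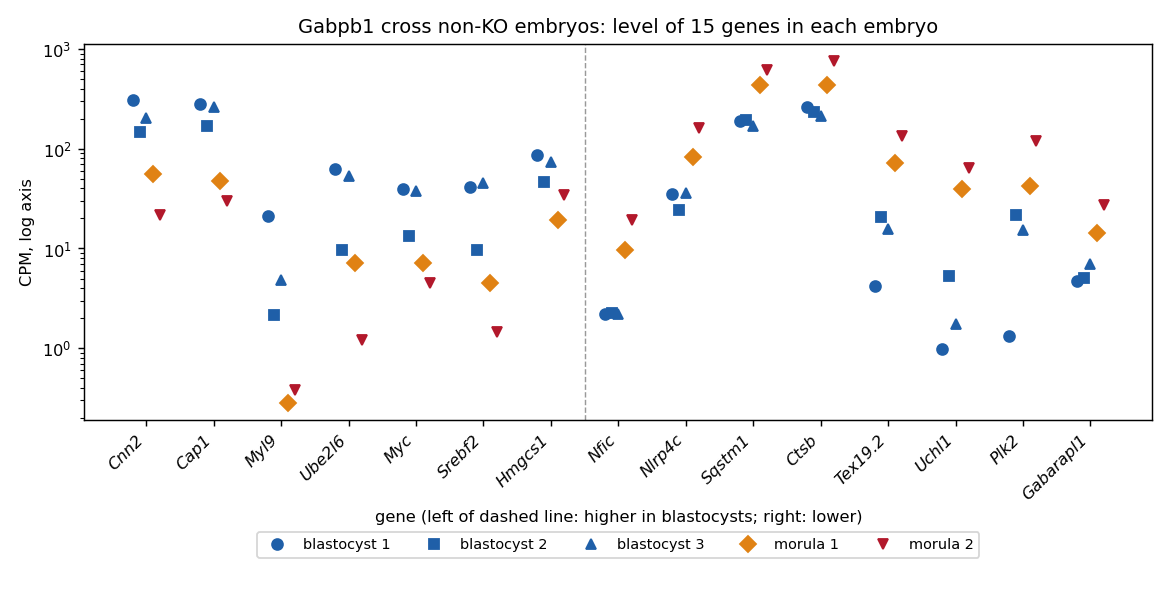
Level of 15 genes (x axis) in CPM on a log axis, with 1 point for each of the 3 blastocysts (blue circle, square and triangle) and the 2 morulae (orange diamond and red inverted triangle). The genes were selected by a small p or by stages that do not overlap, so the separation of the stages follows largely from that choice. In every gene shown the blastocysts lie on one side of both morulae. In most the orange point of morula 1 lies between the blastocysts and morula 2, as for Nfic at 9.75 CPM against 2.25 or less and 19.4.

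Among genes with a mean of at least 5 FPKM (counts per length and depth), an unadjusted p under 0.05 and stages that did not overlap, the largest differences toward the blastocyst were those of BC051665, Ube2l6, Fam25c, Cap1, Cnn2, Myc, Insig1, Gm18032, Lncenc1 and Gm5873. Ube2l6 encodes the E2 enzyme that conjugates the ubiquitin-like modifier ISG15. It was 62.1, 9.71 and 52.9 CPM in the blastocysts and 7.19 and 1.22 CPM in the morulae (log2 fold change 3.30, adjusted p = 0.528). Blastocyst 2 was the lowest blastocyst and lay close to morula 1. Cap1, which recycles actin monomers, was 283, 168 and 264 CPM against 48.0 and 30.1 CPM (log2 fold change 2.61). Cap1 shares exon positions with Ppt1 on the opposite strand. Myc, the growth-promoting transcription factor, was 39.2, 13.3 and 37.8 CPM in the blastocysts against 7.19 and 4.49 CPM in the morulae (log2 fold change 2.37). BC051665 was 7.57, 20.8 and 99.8 CPM against 2.35 and 1.67 CPM (log2 fold change 4.41), so blastocyst 3 alone carries most of its mean. Its transcript is 86.0% identical to that of Ctsll3, so reads of these copies may be shared. Lncenc1, a long noncoding RNA of embryonic stem cells, was 115, 66.7 and 80.2 CPM against 13.4 and 31.4 CPM (log2 fold change 1.96).

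The largest differences toward the morula were those of Art3, Uchl1, Hba-a1, Hba-a2, Rpph1, Sncg, Cbr2, Them5, Tex19.2 and Plk2. Uchl1 (chromosome 5, positions 66676091 to 66687234), a deubiquitinating enzyme abundant in oocytes and neurons, was 0.988, 5.33 and 1.75 CPM in the blastocysts and 39.6 and 63.6 CPM in the morulae. Both morulae were far above every blastocyst, with -4.29 as log2 fold change (SE 1.14, adjusted p = 0.438). Tex19.2, a gene of the germline and the early embryo, was 4.20, 20.7 and 15.6 CPM against 71.9 and 135 CPM (log2 fold change -2.94, SE 0.59, adjusted p = 0.262). Plk2, a polo-like kinase that p53 induces, was 1.32, 21.6 and 15.2 CPM against 42.5 and 120 CPM (log2 fold change -2.69). Art3 rested mostly on a single embryo, with 155 CPM in morula 2 and 11.4 CPM in morula 1 against at most 6.87 CPM in the blastocysts. The alpha-globin gene Hba-a1 was 0.165, 4.97 and 3.36 CPM in the blastocysts and 56.3 and 19.3 CPM in the morulae, and its copy Hba-a2 followed it with 40.7 and 14.0 CPM in the morulae. The transcripts of both globin copies are near-identical, so their counts are not separate measurements. Rpph1, the RNA of ribonuclease P, was 0.329, 0.474 and 0.657 CPM against 4.55 and 6.16 CPM.

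Cholesterol is made from acetyl-CoA through mevalonate and squalene, and the transcription factor SREBP2, encoded by Srebf2, switches the pathway genes on when sterols are low. This gene list and those below were chosen with earlier results of these data known, so their counts are descriptions. Of the 22 genes of cholesterol synthesis and uptake, 12 had all blastocysts above both morulae and 0 had all below, against 11.4% and 11.7% of all genes tested. At an unadjusted p under 0.05, 11 were higher and 0 lower, the background being 2.29% and 4.43%, and none was called. With ERCC scaling, which moved all genes down, 0 were higher and 0 lower at that threshold. That count of 11 was 4 without blastocyst 1, 7 without blastocyst 3, 3 without morula 1 and 4 without morula 2. The median log2 fold change of the list was 1.35, against 0.02 for all genes, and 21 of 22 genes had a positive value. It stayed positive over the alternatives, from 0.52 with ERCC scaling to 1.53 without blastocyst 2. It was 1.26 without morula 1 and 1.23 without morula 2.

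Srebf2 itself (chromosome 15, positions 82147266 to 82205376) had the smallest p of the list. Its level was 41.4, 9.71 and 45.4 CPM in blastocysts 1 to 3 and 4.48 and 1.45 CPM in morulae 1 and 2 (log2 fold change 3.44, SE 1.07, adjusted p = 0.535). Hmgcs1, an early enzyme of the pathway, was 86.2, 46.4 and 73.7 CPM against 19.1 and 34.3 CPM (log2 fold change 1.36, SE 0.45, adjusted p = 0.559). In both genes blastocyst 2 was the lowest blastocyst and still above both morulae. Idi1, the isomerase of the isoprenoid units, was 102, 37.5 and 70.7 CPM against 19.5 and 28.4 CPM (log2 fold change 1.55). Insig1, which retains the SREBP complex in the endoplasmic reticulum, was 39.7, 21.6 and 78.1 CPM against 15.8 and 7.38 CPM (log2 fold change 2.004). Lss, the cyclase that closes the sterol rings, overlapped between the stages, with blastocyst 2 at 10.3 CPM and morula 2 at 13.7 CPM. Counts of Fdps (log2 fold change 1.76) may include reads of Gm43738, which overlaps it on the same strand, and of the pseudogene Gm5873, named above, which is 97.9% identical to it over 143 bases.

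The motif that SREBP2 is known to bind, the sterol regulatory element, was searched by its core TCACNCCAC on both strands of the 250 bases before each RefSeq start (GRCm38.p6). The core was present in 1.05% of 32851 such windows, and in 1 of the 19 windows (5.26%) that belong to genes of the list, that of Hmgcs1. That window, chr13:119690101-119690350 on the plus strand, is shown because it belongs to a gene of the list described above, with the core in capitals.
Hmgcs1: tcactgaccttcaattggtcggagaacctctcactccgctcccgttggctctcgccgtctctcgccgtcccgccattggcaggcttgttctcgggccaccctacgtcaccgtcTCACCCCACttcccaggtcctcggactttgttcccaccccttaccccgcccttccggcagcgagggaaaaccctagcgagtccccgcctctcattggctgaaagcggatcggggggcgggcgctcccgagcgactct
A match is a description of these letters, and no match says only that they are not in the window.

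Targets of p53 went the opposite way. The p53 protein is stabilised by DNA damage and other stress and induces genes of cell cycle arrest, apoptosis and its own turnover. Of 16 targets, 10 had all blastocysts below both morulae and 0 had all above, where the share over all genes was 11.7% and 11.4%. At an unadjusted p under 0.05, 8 were lower and 0 higher (4.43% and 2.29% of all genes), and none was called. The 8 became 4 without blastocyst 1 and 2 without morula 2. Their median log2 fold change was -1.24, and it ran from -2.29 with ERCC scaling to -0.86 without morula 2. It was -1.58 without morula 1.

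Bbc3 encodes PUMA, an inducer of apoptosis. It was 1.07, 2.84 and 2.70 CPM in the blastocysts and 6.62 and 10.2 CPM in the morulae (log2 fold change -1.93, SE 0.50, adjusted p = 0.438). Zmat3, a splicing regulator, was 2.39, 11.4 and 6.86 CPM against 15.5 and 49.1 CPM (log2 fold change -2.24, SE 0.59, adjusted p = 0.438). Mdm2, the ubiquitin ligase that degrades p53, was 43.1, 97.0 and 99.1 CPM against 155 and 172 CPM (log2 fold change -1.03). Ccng1, a cyclin of the p53 feedback loop, was 146, 336 and 297 CPM against 438 and 607 CPM (log2 fold change -1.01). Trp53inp1 was 16.0, 83.1 and 41.7 CPM against 109 and 144 CPM (log2 fold change -1.43), and it encodes a stress protein that promotes p53 activity. In these 5 genes blastocyst 1 was the lowest of all embryos. The inhibitor of cyclin-dependent kinases Cdkn1a was 22.8, 238 and 66.2 CPM against 154 and 424 CPM, so blastocyst 2 lay above morula 1 and the stages overlapped (log2 fold change -1.41, adjusted p = 0.788).

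**Figure D2:**
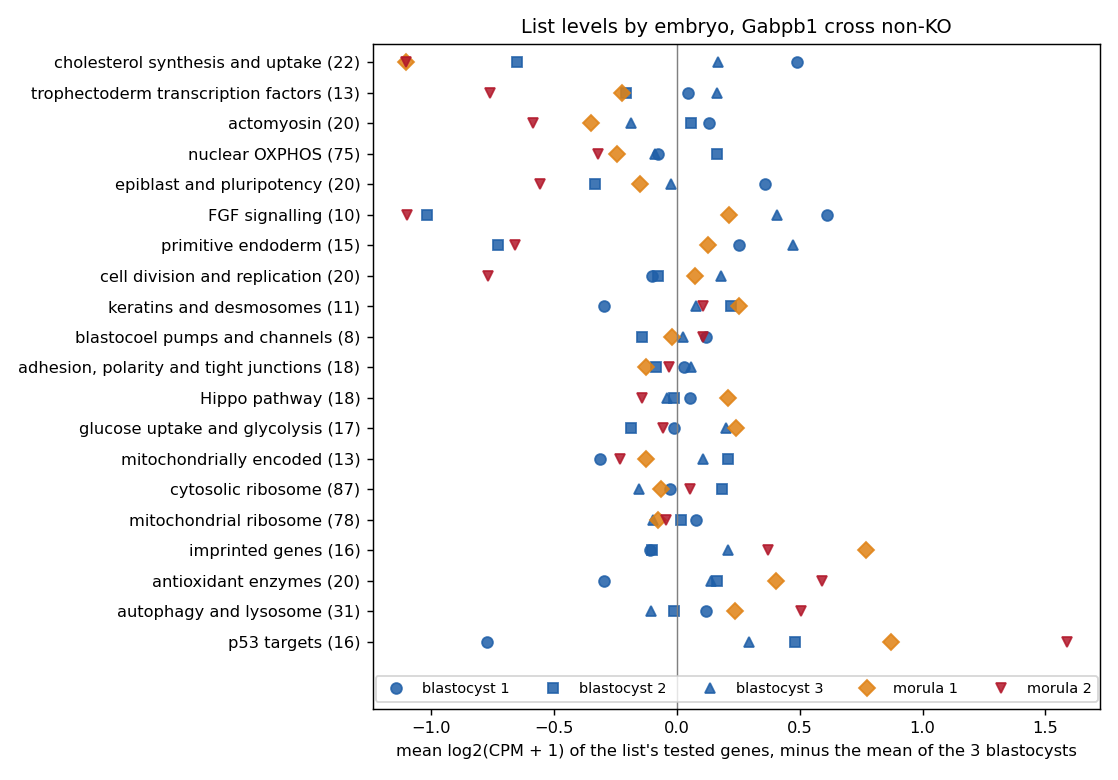
For 20 gene lists (number of tested genes in parentheses), the mean log2(CPM + 1) of each embryo minus the mean of the 3 blastocysts (x axis, log2 units), with 1 point per embryo. Both morulae lie left of all blastocysts for cholesterol synthesis and uptake and right of them for p53 targets, whose median fold changes were 1.35 and -1.24, while for the Hippo, adhesion and ribosome lists the embryos of both stages are mixed or close.

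Antioxidant enzymes remove peroxides and superoxide. Of 20 antioxidant enzymes, 7 had all blastocysts below both morulae and 2 had all above, against 11.7% and 11.4% of all genes, so that the 2 (10%) lie at the background share. At an unadjusted p under 0.05, 5 were lower and 0 higher, where the shares of all genes were 4.43% and 2.29%, and the 5 became 3 without blastocyst 1 and 2 without morula 2. The median log2 fold change was -0.30. Prdx6, a peroxiredoxin, was 355, 225 and 366 CPM in the blastocysts and 570 and 638 CPM in the morulae (log2 fold change -0.94, SE 0.29, adjusted p = 0.535). Gclm, the modifier subunit of the enzyme that starts glutathione synthesis, was 104, 128 and 99.7 CPM against 188 and 163 CPM (log2 fold change -0.67). Txnrd1, which reduces thioredoxin, was 36.1, 57.9 and 98.3 CPM against 126 and 223 CPM (log2 fold change -1.44). The glutathione transferase gene Gstp1 was 202, 253 and 314 CPM against 448 and 1142 CPM (log2 fold change -1.63). The mitochondrial superoxide dismutase gene Sod2 was among the exceptions, at 1268, 1298 and 1130 CPM in the blastocysts and 920 and 859 CPM in the morulae (log2 fold change 0.47, and -0.40 with ERCC scaling). The core of the antioxidant response element, TGACNNNGC on either strand, was present in 10.2% of all windows of 250 bases and in 4 of the 23 windows (17.4%) that belong to enzymes of the list. It was also in 3 of the 19 windows (15.8%) of the cholesterol list, which went the other way. In the autophagy and lysosome list described below it was in 3 of 29 windows (10.3%). The windows of Gclm (chr3:122245307-122245556, plus strand) and Txnrd1 (chr10:82858956-82859205, plus strand) are shown, with the core in capitals, because both genes are described here.
Gclm: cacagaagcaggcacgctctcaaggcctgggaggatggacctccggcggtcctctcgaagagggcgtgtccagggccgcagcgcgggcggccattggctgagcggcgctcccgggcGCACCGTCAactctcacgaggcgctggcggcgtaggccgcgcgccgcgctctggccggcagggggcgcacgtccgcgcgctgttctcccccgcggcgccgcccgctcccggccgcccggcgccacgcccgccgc
Txnrd1: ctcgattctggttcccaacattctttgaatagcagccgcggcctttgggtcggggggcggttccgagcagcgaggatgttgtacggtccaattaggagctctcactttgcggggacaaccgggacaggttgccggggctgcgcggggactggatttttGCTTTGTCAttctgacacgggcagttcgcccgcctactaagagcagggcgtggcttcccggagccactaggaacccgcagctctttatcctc

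A list of 31 autophagy and lysosome genes was drawn up after Sqstm1 and Ctsb had been seen, so their values support nothing. The counts and the median of the list include both genes and are given as a description only. In it, 8 genes, Sqstm1 and Ctsb among them, had all blastocysts below both morulae and 1 had all above, where the shares of all genes were 11.7% and 11.4%. The median log2 fold change was -0.15. Gabarapl1, which coats autophagosomes, was 4.78, 5.09 and 7.003 CPM in the blastocysts and 14.3 and 27.5 CPM in the morulae (log2 fold change -1.89, SE 0.42, adjusted p = 0.304). Ctsd, the lysosomal protease cathepsin D, was 290, 265 and 232 CPM against 407 and 641 CPM (log2 fold change -0.998). The lysosome membrane gene Lamp2 was 95.0, 170 and 77.8 CPM against 254 and 480 CPM (log2 fold change -1.68).

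**Figure D3:**
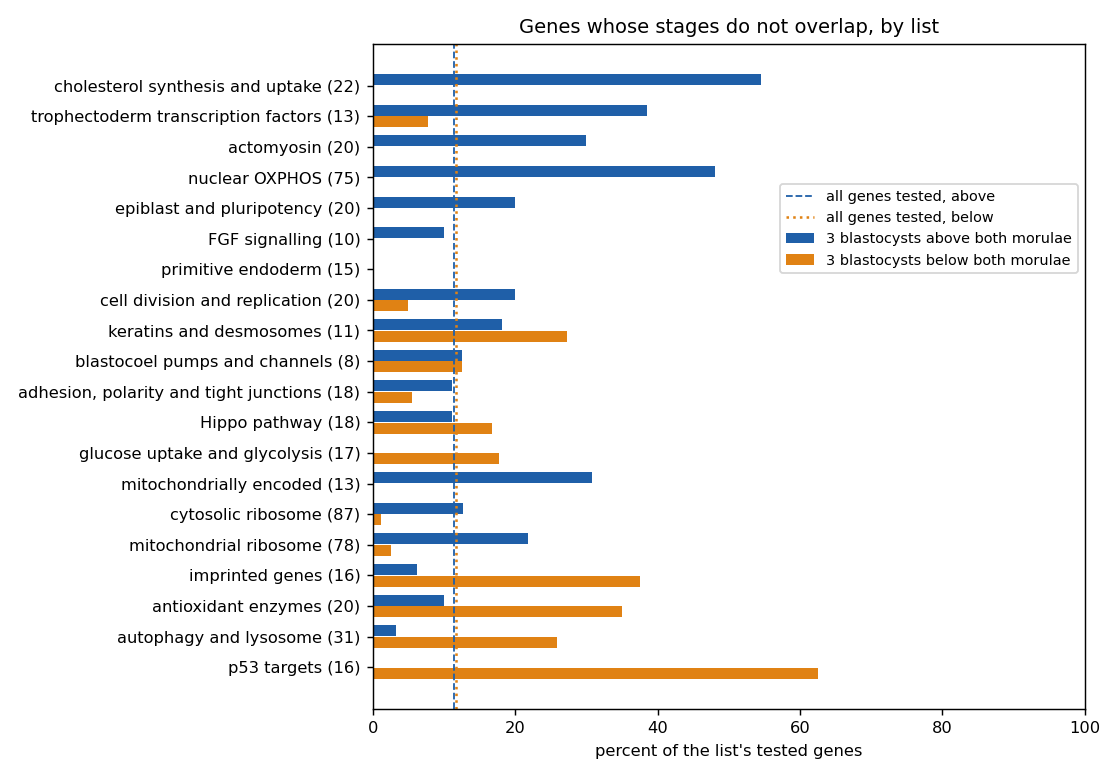
For the same 20 lists, the percent of tested genes (x axis, 0 to 100) for which all 3 blastocysts lie above both morulae (blue bars) or below both (orange bars). The dashed and dotted lines give the shares over all 18410 genes, 11.4% and 11.7%, and the p53 targets have no blue bar and the cholesterol and nuclear OXPHOS lists no orange one.

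The nuclear genes of oxidative phosphorylation (OXPHOS), the respiratory chain that the blastocyst uses for ATP, differed by small amounts, with TMM mostly toward the blastocyst. Of 75 such genes, 36 had all blastocysts above both morulae and 0 had all below, against 11.4% and 11.7% of all genes. Positive fold changes were found for 70 of the 75, and for 9508 of the 18410 genes tested. At an unadjusted p under 0.05, 4 were higher and 0 lower (2.29% and 4.43% of all genes), and the 4 became 0 without morula 2. The median log2 fold change was 0.30 with TMM and -0.60 with ERCC scaling. Relative to the median of all genes, which the scaling moves alike, it was 0.28 and 0.26. Sdhb, the iron-sulfur subunit of complex II, was 489, 494 and 477 CPM in the blastocysts and 350.5 and 299.5 CPM in the morulae (log2 fold change 0.58 with TMM and -0.30 with ERCC scaling). The complex I subunit gene Ndufs7 was 391, 459 and 419 CPM against 311 and 269 CPM (log2 fold change 0.54 with TMM and -0.36 with ERCC scaling). The 13 genes encoded in mitochondrial DNA had a median of 0.14, and 4 of them had all blastocysts above both morulae. Ribosomal protein genes had medians near that of all genes, at 0.04 for 87 cytosolic and 0.07 for 78 mitochondrial ones. Of the 78, 17 (21.8%) had all blastocysts above both morulae and 2 (2.56%) had all below. Of the 87, 11 (12.6%) had all above, near the share of all genes, and 1 (1.15%) had all below.

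The transcription factors of the trophectoderm specify the outer epithelium. Of 13 tested, 5 had all blastocysts above both morulae and 1 had all below (11.4% and 11.7% of all genes), and none passed an unadjusted p of 0.05. Their median log2 fold change was 0.47 with TMM and -0.46 with ERCC scaling. It was 1.01 without morula 1 and 0.17 without morula 2. The level in morula 1 lay inside the blastocyst range for 53.8% of them, near the 56.3% of all genes, and that in morula 2 for 23.1%, where all genes had 45.6%. Cdx2, the trophectoderm-specifying homeobox factor, was 24.9, 20.4 and 29.6 CPM in the blastocysts, 23.2 CPM in morula 1 and 10.4 CPM in morula 2. Gata3, which acts beside it, was 225, 158 and 205 CPM in the blastocysts, 211 CPM in morula 1 and 89.9 CPM in morula 2. Both genes thus had morula 1 among the blastocysts and only morula 2 below them. Eomes, needed for trophoblast growth, was 68.8, 54.4 and 98.8 CPM in the blastocysts against 39.1 and 23.4 CPM (log2 fold change 1.24, SE 0.97). Id2, an inhibitor of helix-loop-helix factors, was 1060, 749 and 696 CPM in the blastocysts against 493 and 158 CPM (log2 fold change 1.36, SE 1.17). Tead4, the Hippo pathway factor upstream of Cdx2, was 95.6, 87.3 and 121 CPM against 85.4 and 61.6 CPM, so morula 1 lay next to blastocyst 2.

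Transcripts of keratins, pumps and junction proteins were present in both stages. The simple epithelial keratin genes were high in all 5 embryos, with Krt8 at 1211 to 1935 CPM in the blastocysts and at 1567 and 961 CPM in morulae 1 and 2. Krt18 was 2932, 2609 and 2579 CPM in the blastocysts against 2069 and 1336 CPM. Over the 11 keratin and desmosome genes the median log2 fold change was -0.30, with 2 genes above and 3 below both morulae in all blastocysts (11.4% and 11.7% of all genes). This median was 0.00 without blastocyst 1, -0.02 without morula 1 and -0.05 without morula 2. Krt19 was lower in blastocysts, at 0.659, 11.4 and 22.5 CPM against 42.1 and 28.3 CPM. The plaque protein gene Pkp2 was 34.9, 42.6 and 48.1 CPM against 24.9 and 21.8 CPM (log2 fold change 0.84 with TMM and -0.09 with ERCC scaling). The 8 genes of the blastocoel pumps and water channels had a median of -0.08. Among these, Atp1b1, a subunit of the sodium pump, was 149, 37.5 and 91.4 CPM in the blastocysts and 109 and 152 CPM in the morulae, and the water and glycerol channel gene Aqp3 was 125, 148 and 155 CPM against 229 and 173 CPM. For neither gene did the blastocysts lie above the morulae. The 18 adhesion, polarity and tight junction genes had a median of 0.12, and the polarity kinase gene Prkcz was 114, 91.9 and 124 CPM against 75.6 and 65.5 CPM (log2 fold change 0.64 with TMM and -0.25 with ERCC scaling).

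Actomyosin, the contractile cortex of the outer cells, held 1 gene with a steep difference. Myl9, a regulatory light chain of myosin II, was 21.2, 2.13 and 4.81 CPM in the blastocysts and 0.285 and 0.380 CPM in the morulae (log2 fold change 4.79, SE 1.20, adjusted p = 0.423). Both morula levels rest on few counts, and blastocyst 1 alone carries most of the blastocyst mean. Of 20 actomyosin genes, 6 had all blastocysts above both morulae and 0 had all below, where all genes had 11.4% and 11.7%. Over the list the median log2 fold change was 0.35 with TMM and -0.56 with ERCC scaling, 0.61 without morula 1, 0.23 without morula 2 and 0.20 without blastocyst 2. The light chain gene Myl12a was 650, 720 and 482 CPM against 428 and 348 CPM (log2 fold change 0.67 with TMM and -0.19 with ERCC scaling). The cytoplasmic actin gene Actg1 differed little (log2 fold change 0.15, adjusted p = 0.950).

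The inner cell mass holds the epiblast, which keeps pluripotency factors on, and the primitive endoderm. Of 20 epiblast and pluripotency genes, 4 had all blastocysts above both morulae and 0 had all below, where all genes had 11.4% and 11.7%. The 4 became 10 without blastocyst 2 (21.2% of all genes) and 13 without morula 1 (26.3% of all genes). For these 20 genes the median log2 fold change was 0.46 with TMM and -0.42 with ERCC scaling, and it ran from 0.20 without blastocyst 1 to 0.75 without morula 1. Nanog, the epiblast factor, was 122, 165 and 160 CPM in the blastocysts, 171 CPM in morula 1 and 89.2 CPM in morula 2. Sall4, a zinc finger factor of pluripotent cells, was 56.8, 58.1 and 89.3 CPM against 44.7 and 38.0 CPM (log2 fold change 0.72 with TMM and -0.23 with ERCC scaling). Pou5f1, which encodes OCT4, overlapped between the stages at 104, 84.0 and 148 CPM against 86.7 and 69.8 CPM. None of the 15 primitive endoderm genes tested had all blastocysts on one side of both morulae. Without blastocyst 2, 7 lay above both morulae (21.2% of all genes), and without morula 1, 4 lay above morula 2 (26.3% of all genes). Their median log2 fold change was 0.66, with 11 of 15 positive, and it was 1.51 without morula 1, 0.11 without morula 2, 0.20 without blastocyst 3 and -0.62 with ERCC scaling. Gata4 was 18.9, 3.43 and 18.1 CPM in the blastocysts and 4.84 and 2.89 CPM in the morulae, and Sox17 was 39.4, 10.4 and 47.2 CPM against 13.2 and 8.21 CPM. For both of these endoderm factors blastocyst 2 was at the level of the morulae while blastocysts 1 and 3 were higher. The 10 FGF signalling genes had a median of 0.62, which was 1.42 without morula 1, 0.25 without morula 2 and -0.24 with ERCC scaling. In them blastocyst 2 and morula 2 were the lowest embryos on average, and Etv5, a response gene of the pathway, was 37.6, 10.4 and 34.1 CPM against 19.99 and 2.59 CPM.

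Imprinted genes, expressed from 1 parental copy, had 6 of 16 tested with all blastocysts below both morulae and 1 with all above, where all genes had 11.7% and 11.4%. The median log2 fold change was -0.66, and it was -0.23 without morula 1, -0.38 without blastocyst 2 and -0.12 with a stricter filter. Grb10, a growth inhibitor, was 2.06, 1.89 and 2.04 CPM in the blastocysts and 7.68 and 9.13 CPM in the morulae (log2 fold change -2.07, SE 0.67, adjusted p = 0.546). Igf2r, which removes the growth factor IGF2, was 19.18, 21.3 and 12.6 CPM against 34.5 and 32.1 CPM (log2 fold change -0.91). Of 18 maternal oocyte mRNAs, 7 passed the filter on low values. Among these, Zp3, a zona protein gene of the oocyte, was at or under 0.474 CPM in the blastocysts and at 2.85 and 2.36 CPM in the morulae. Ooep, of the subcortical maternal complex, had the opposite order, at 109, 124 and 81.0 CPM against 57.6 and 34.9 CPM.

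The gene targeted in this cross was measured in every embryo. Gabpb1 was 48.7, 45.8 and 77.9 CPM in the blastocysts and 93.8 and 83.3 CPM in the morulae (log2 fold change -0.62, SE 0.38, adjusted p = 0.799). Counts per gene do not show the deleted exons, and whether WT and hetero embryos are spread unevenly over the stages was not tested. Alyref, targeted in the other cross, was 218, 257 and 301 CPM in the blastocysts and 288 and 185 CPM in the morulae (log2 fold change 0.13, adjusted p = 0.969). The sex of the embryos was mixed within each stage: summed Y-linked genes stood at 310 CPM in blastocyst 1 and 237 CPM in morula 1 and at 0.0729 CPM or less in the other 3. Adding Y-linked expression to the model, the QL test called 3 genes between the stages, Nfic, Pgrmc1 and Tex19.2.

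The same contrast in the Alyref cross (3 non-KO blastocysts against 3 non-KO morulae of the same age) called 2402 genes, 1035 higher (5.62%) and 1367 lower (7.43%). At an unadjusted p under 0.05 it had 2584 genes higher (14%) and 3139 lower (17.1%). It shares no embryo with the Gabpb1 cross, and each cross had fertilisations of its own, and effects of the cross and of a batch cannot be told apart. The labels give no sequencing batch. Of the 1035 genes, 782 (75.6%) had a positive fold change in the Gabpb1 cross, as had 9508 of the 18410 genes tested. Among the 1035, 311 (30.05%) had all blastocysts above both morulae and 39 (3.77%) all below. The shares of all genes were 11.4% and 11.7%. The median log2 fold change of the 1035 was 0.29 here and 1.60 in the Alyref cross. Of the 1367 genes, 966 (70.7%) had a negative fold change here, as had 8746 of all genes tested. Among the 1367, 338 (24.7%) had all blastocysts below both morulae and 55 (4.02%) all above. The median of the 1367 was -0.26 here and -1.64 in the Alyref cross. Both sets were chosen by their values in the Alyref cross, so the sizes of these medians cannot be compared between the crosses. Across 18410 genes the fold changes of both crosses correlated at 0.223 (Pearson) and 0.247 (Spearman), given as a description of genes that are not independent and that share 1 model fit.

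A position along these stage genes was taken as the mean log2(CPM + 1) of the genes called higher minus that of the genes called lower in the Alyref cross. It was 1.16, 0.640 and 1.11 in Gabpb1 cross blastocysts 1 to 3 and 0.531 and 0.270 in morulae 1 and 2. All blastocysts lay above both morulae, but by less than the distance between blastocysts 2 and 1 for the closest pair. In the Alyref cross, whose embryos chose the genes, blastocysts stood at 1.18 to 1.60 and morulae at -2.63 to -0.455. Both Gabpb1 cross morulae lay above every Alyref cross morula on this scale. The genes were chosen because they set the Alyref cross stages apart, so this order cannot show a difference between the morulae of the crosses.

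**Figure D4:**
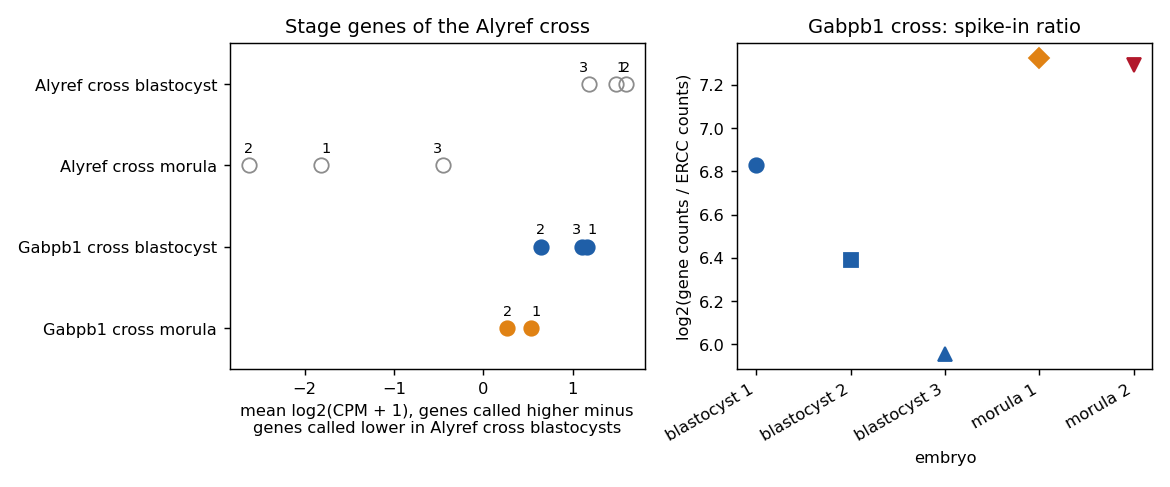
Left, the mean log2(CPM + 1) of genes called higher minus that of genes called lower in Alyref cross blastocysts (x axis) for each embryo of both crosses, numbered by replicate, with open grey circles for the Alyref cross that chose the genes. The Gabpb1 cross morulae (orange, 0.531 and 0.270) lie near their blastocysts (blue, 0.640 to 1.16). Right, the log2 ratio of gene to ERCC counts (y axis, starting above 0) of the 5 Gabpb1 cross embryos, with both morulae at 7.29 or more and the blastocysts at 6.83 or less.

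A test of the difference between the crosses called 1 gene, Wls, at 0.00543% of genes, with 2534 (13.8%) at an unadjusted p under 0.05, of which 1340 (7.28%) had a higher and 1194 (6.49%) a lower fold change in the Gabpb1 cross. Wls encodes the carrier that takes Wnt proteins to the cell surface. It was 3.79, 4.74 and 10.1 CPM in the Gabpb1 cross blastocysts and 41.3 and 15.2 CPM in the morulae (log2 fold change -2.18, SE 0.67, adjusted p = 0.528). In the Alyref cross it was 6.36 to 26.0 CPM in blastocysts and 0.0844 to 0.453 CPM in morulae (log2 fold change 5.54, adjusted p = 0.00505). The difference of the fold changes was -7.72 on the log2 scale (adjusted p = 0.0218). Wls was called under 14 of the 25 alternatives in which it was tested, with adjusted p from 3.34e-11 to 0.229.

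The lists differed in how far the crosses matched. Medians were 1.35 here and 0.82 in the Alyref cross for cholesterol synthesis and uptake, and -1.24 and -0.94 for p53 targets. For the nuclear OXPHOS genes they were 0.30 and 0.69. Of these 75 genes, 35 were called higher in the Alyref cross, where 5.62% of all genes were. Cnn2 and Myl9 were called in the Alyref cross (log2 fold change 3.09, adjusted p = 0.00432, and 6.54, adjusted p = 0.0076), and so were Nfic, Uchl1, Tex19.2 and Plk2 on the low side (-1.86, -4.82, -3.37 and -3.02). Most genes were not. Of the 422 genes higher here at an unadjusted p under 0.05, 79 were called higher there and 8 lower. Of the 815 genes lower here, 143 were called lower there and 11 higher. The shares of all genes called there were 5.62% higher and 7.43% lower. For 3 structural lists the medians were further apart, at 0.35 and 1.62 for actomyosin, -0.30 and 1.53 for keratins and desmosomes, and -0.08 and 1.27 for the blastocoel pumps and channels. The keratin median here was near 0 when blastocyst 1 or either morula was left out, as given above. Antioxidant enzymes had a median of -0.30 here and 0.14 there, with Gpx3 at -1.98 and 2.46 (unadjusted p of the difference 0.00531, not called after adjustment). These differences between list medians were not tested.

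**Figure D5:**
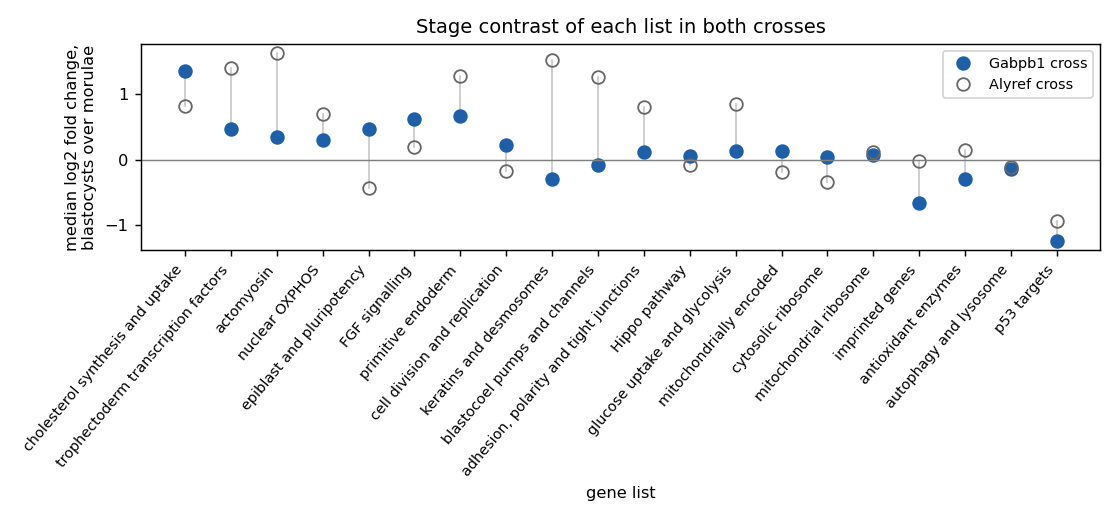
Median log2 fold change of blastocysts over morulae (y axis) of 20 gene lists in the Gabpb1 cross (filled blue) and the Alyref cross (open grey), joined by a line for each list. The points lie close for p53 targets (-1.24 and -0.94) and far apart for keratins and desmosomes (-0.30 and 1.53).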

How the data were processed

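PolyA cDNA of single embryos was sequenced as paired reads of 50 and 25 bases. The authors deposited 1 table of counts per gene, and its values are raw counts although its name announces FPKM. Per the submitters' processing notes, reads were trimmed (Trimmomatic, Trim Galore and cutadapt are named), aligned to mm10 with STAR and counted with featureCounts. Versions and the strand setting are not given in the sources used here. The deposited table has 53379 rows for genes and 92 for ERCC.

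A gene was tested when its FPKM, computed from the counts and the deposited exon length, reached 1 in 2 or more of the 19 embryos. This left 18410 of the 39262 genes that had a count. edgeR 4.0.16 (R 4.3.3) with TMM scaling and its QL F test was fitted to all 7 groups, with BH adjustment over all genes tested, and the SE is the log2 fold change over the square root of F. The alternatives used DESeq2 1.42.0, limma 3.58.1, other scalings and filters, covariates and left-out embryos. The design named this edgeR test for a table of raw counts, and limma on log2(FPKM + 1) in case the table held FPKM. Spike-in ratios were compared by an exact permutation test over 10 splits. No molecular identifiers are named in the labels, so PCR copies may be counted more than once.

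Named genes are the 10 largest differences each way (unadjusted p under 0.05, mean FPKM of 5 or more over the 5 embryos, stages not overlapping), the 5 smallest p, up to 4 smallest-p members of each of the gene lists, Gabpb1, Alyref, genes called between crosses and those that differed most between the 2 morulae. Other list members and Pgrmc1, named in the text, were chosen after their values were seen. Earlier results of these data were known when the embryos, gene lists and tests were chosen, although the embryos were taken by their labels. The autophagy and lysosome list was drawn up after seeing values. In simulated counts for the Gabpb1 cross contrast over 18410 genes, the QL test recovered 4%, 34%, 64% and 70% of genes changed by 1, 2, 3 and 4 on the log2 scale (50 genes each, 2 wrong calls over all sizes), and DESeq2 8%, 56%, 78% and 76% with 46 wrong calls.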

Additional observations from a re-analysis of the deposited data

Results flagged for a closer look

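The stage difference of Wls between the crosses was -7.72 on the log2 scale (Gabpb1 cross minus Alyref cross, adjusted p = 0.0218 by the interaction contrast in edgeR). In the Gabpb1 cross both morulae, at 41.3 and 15.2 CPM, were above all 3 blastocysts, and in the Alyref cross all 3 blastocysts, at 6.36 to 26.0 CPM, were above all 3 morulae. The difference ran from -8.35 with ERCC scaling to -2.60 on the log2(FPKM + 1) scale, and the adjusted p from 3.34e-11 with DESeq2 to 0.229 with the fit restricted to the groups compared. The crosses were separate fertilisations, and effects of cross and of a batch cannot be told apart.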

How the results depend on the processing

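The count of genes called between stages in the Gabpb1 cross was 0 by the QL test, 57 with DESeq2, 3 with Y-linked expression as a covariate, 10 with limma on log2(FPKM + 1) and 24 with limma voom and embryo weights, and from 0 to 6 (without morula 1) when 1 embryo was left out. The difference between crosses called 1 gene, 336 with DESeq2, 1136 with embryo weights, 8 with no filter on low values, 0 with the Y-linked covariate, 0 with limma on log2(FPKM + 0.1) or log2(FPKM + 1), 0 with only the groups compared, 0 with the stricter filter, and 0 to 702 (without Alyref cross morula 3) with 1 embryo left out (7 without Gabpb1 cross morula 1). The Alyref cross count of 2402 was 3762 with DESeq2, 352 with ERCC scaling, 7262 with embryo weights, 24 with only the groups compared, and 346 (without morula 2) to 4560 (without morula 3) with 1 embryo left out. It was 423 and 442 without blastocysts 1 and 2, 1104 without blastocyst 3 and 864 without morula 1.

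With the replicate number as a block, the Gabpb1 cross count stayed at 0 (1100 genes at an unadjusted p under 0.05) and the count of the difference between crosses was 0. The labels do not say that a number pairs embryos, and only 2 numbers are shared. The deviations of same-numbered embryos correlated at 0.07 and 0.15, but with 2 morulae the deviations of one mirror those of the other, so these values do not settle whether the numbers pair embryos.

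ERCC scaling turned the log2 fold change negative for Alyref (-0.81), Cdx2 (-0.34), Dhcr7 (-0.066), Dppa5a (-0.41), Fgfr2 (-0.10), Gata3 (-0.49), Krt18 (-0.20), Krt8 (-0.65), Mcm4 (-0.35), Myl12a (-0.19), Myl12b (-0.16), Nanog (-0.74), Ndufb10 (-0.33), Ndufs7 (-0.36), Ndufv3 (-0.36), Pkp2 (-0.090), Pou5f1 (-0.42), Prkcz (-0.25), Sall4 (-0.23), Sdhb (-0.30), Sod2 (-0.40) and Tead4 (-0.46), because it moves all genes. With 1 embryo left out it ran from -0.15 (without morula 2) to 0.49 (without morula 1) for Alyref, from -0.11 to 1.12 for Gata3, from -0.032 to 0.67 for Krt8 and from -0.20 to 0.74 for Nanog, in each case between the same 2 omissions. Other causes of these changes were not tested. Levels under about 1 CPM rest on few counts.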

Other observations

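The morulae differed most from each other in genes that only 1 of them held. The gene 1700013H16Rik was 0 CPM in morula 1 and 61.2 CPM in morula 2, and the X-linked homeobox gene Rhox5 was 0 CPM and 45.6 CPM. Sh2d4a went the other way, at 19.7 CPM in morula 1 and 0 CPM in morula 2. Xist, the RNA that silences an X chromosome in females, was 6.69 CPM in morula 1 and 410 CPM in morula 2, and 7.33, 234 and 57.8 CPM in blastocysts 1 to 3.

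Among the 20 genes of cell division and replication, 17 fold changes were positive (median log2 fold change 0.23 with TMM and -0.68 with ERCC scaling). The direction rests on morula 2: the median was 0.94 without morula 1 and -0.03 without morula 2. Without morula 2, 5 of the 20 genes had all blastocysts above morula 1 and 8 had all below. The shares of all genes in that setting were 21.7% and 22.1%. Mcm4, a subunit of the replicative helicase, was 164, 165 and 261 CPM in the blastocysts and 162 and 94.9 CPM in the morulae. The 17 genes of glucose uptake and glycolysis had a median of 0.13, with 3 below both morulae in all blastocysts and 0 above (11.7% and 11.4% of all genes), and the 18 Hippo pathway genes a median of 0.06.

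In 8639704 counts drawn from each library, 24454, 24602 and 23505 genes were detected in blastocysts 1 to 3 and 24807 and 24394 in morulae 1 and 2. The means of 24187 ± 595 (SD, n = 3) and 24601 ± 292 (SD, n = 2) gave p = 0.6 in a two-sided exact permutation test, a difference of -413.5 genes. It was -72.5 without blastocyst 3 and -207 without morula 1. Counting genes with at least 5 counts, it was -655, with all blastocysts below both morulae (two-sided exact permutation p = 0.1, the smallest that 3 against 2 can give). Mitochondrially encoded counts made up 4.16%, 4.91% and 5.20% of the blastocyst libraries and 4.22% and 3.80% of the morula libraries.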
